A study of Mus musculus with 4 samples.

Results

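The promoters of the Ly6 gene family were examined for histone H3 lysine 9 dimethylation (H3K9me2) in the medial layer of the mouse aorta. The family was taken as the rows of the promoter table for 10 listed genes, of which 8 (Ly6a, Ly6d, Ly6e, Ly6f, Ly6g, Ly6h, Ly6i and Ly6k) were analysed among 26354 promoters. Ly6c1 and Ly6c2 were not analysed here. The tissue came from male C57Bl/6J mice, without a transgene or treatment named in the labels, and was fixed directly after the adventitial and endothelial layers had been removed by hand. There were 2 experiments, numbered v102 and v134, and each gave 1 library of H3K9me2 chromatin immunoprecipitation (ChIP) and 1 input library, which is chromatin sequenced without immunoprecipitation. The age of the mice and the number of aortas in each library are not given in the sources used here. The p-values of ChIP against input measure only the spread between these libraries, and those comparing members with each other cover counting error only.

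Ly6 genes encode small cysteine-rich proteins of the Ly6/uPAR superfamily, most of which are held on the cell surface by a glycosylphosphatidylinositol anchor. Many of them are used as markers of cell types. Ly6a encodes stem cell antigen 1 (Sca1), which the study uses as a marker of vascular smooth muscle cells (VSMCs) that have switched away from the contractile state, and Ly6g encodes the neutrophil antigen recognised in flow cytometry. H3K9me2 is placed mainly by the methyltransferases EHMT2 and EHMT1 and is known as a mark of silent genes in facultative heterochromatin. The question put to the table was how much of this repressive mark lay over the promoters of Sca1 and its relatives, and whether both experiments gave the same answer.

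Of the 8 promoters, 2 matched an entry of the RefSeq promoter sequences (GRCm38.p6), those of Ly6f and Ly6g. They are shown because both were above input, and the promoter of Ly6g6d, a relative on chromosome 17 with few ChIP reads, is shown for contrast. Each line gives the 250 bases before the RefSeq start, read 5′ to 3′ on the strand of the gene, with the letters TATAAA in capitals where they occur. The Ly6f stretch is chr15:75268171-75268420 (plus strand), the Ly6g stretch chr15:75155011-75155260 (plus strand) and the Ly6g6d stretch chr17:35078057-35078306 (minus strand).
Ly6f: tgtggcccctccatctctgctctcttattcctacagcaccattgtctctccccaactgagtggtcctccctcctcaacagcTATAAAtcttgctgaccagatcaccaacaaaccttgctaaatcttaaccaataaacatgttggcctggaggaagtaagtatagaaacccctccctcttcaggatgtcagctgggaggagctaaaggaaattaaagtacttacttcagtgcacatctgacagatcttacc
Ly6g: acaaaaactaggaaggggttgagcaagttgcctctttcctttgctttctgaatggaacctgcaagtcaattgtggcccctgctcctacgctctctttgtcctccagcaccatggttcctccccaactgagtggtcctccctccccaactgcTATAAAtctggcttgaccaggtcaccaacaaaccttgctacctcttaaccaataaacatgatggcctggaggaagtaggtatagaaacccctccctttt
Ly6g6d: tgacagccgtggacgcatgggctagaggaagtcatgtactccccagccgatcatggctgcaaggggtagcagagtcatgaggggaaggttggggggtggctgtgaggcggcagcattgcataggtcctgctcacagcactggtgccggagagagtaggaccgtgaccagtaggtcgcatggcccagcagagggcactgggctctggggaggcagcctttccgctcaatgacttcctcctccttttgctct
The Ly6f and Ly6g stretches are related to each other. In a local alignment they shared 159 of 180 positions (88.3%), from 250 to 72 bases before the Ly6f start and from 180 to 1 bases before the Ly6g start. The letters TATAAA, searched on both strands, lay within that shared part, beginning 169 bases before the Ly6f start and 99 bases before the Ly6g start. They were absent from the Ly6g6d stretch, and 11.5% of the 15102 table promoters with a sequence held them. The letters TGANTCA (AP-1), TTCNNNGAA (the interferon-gamma-activated site) and the NF-kB consensus were found in none of the 3 stretches, compared with 6.03%, 6.62% and 7.90% of those 15102 promoters. CG dinucleotides numbered 0 in the Ly6f stretch, 1 in the Ly6g stretch and 8 in the Ly6g6d stretch, against a median of 11 over the same 15102 promoters.

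The deposited table holds raw reads within 1 kb either side of each transcription start site, so that every window has the same length. Over the table the ChIP libraries hold 162233 reads in v102 and 229605 in v134, and the input libraries 619100 and 1084349, which are totals over the listed promoters and not sequencing depths. A promoter of median count held 4 ChIP and 20 input reads in v102, and 5 and 37 in v134, so that a single promoter is measured with few reads. The log2 H3K9me2/input ratio of an experiment was computed after adding 1 read to ChIP and input and scaling both to the total of their library over the table. A value of 0 therefore means the same share of reads in ChIP and input, and the median over all promoters was -0.31 for the mean of both experiments. Intervals are 95% Wilson intervals and cover counting error only.

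The calls of H3K9me2 against input differed between members of the family, which does not test the members against each other. The promoters of Ly6f, Ly6k and Ly6g had more ChIP reads than their input reads and the library totals would give, while those of Ly6i, Ly6a, Ly6e, Ly6h and Ly6d were not distinguished from input. In edgeR's quasi-likelihood test over the whole table with Benjamini-Hochberg adjustment, 3 of the 8 members were above input at an adjusted p of 0.05, beside a background of 18.6% of all promoters (4902). The number of members below input was 0, where the background was 17.0% (4484). At an unadjusted p under 0.05, 4 members were above and 0 below, beside 21.4% and 24.8% of all promoters. DESeq2 called 2 members above and 0 below, beside 11.6% and 0.102% of all promoters. It gave no adjusted p for 5 of the 8 members and for 17883 of the 26354 promoters. These count as not called in those shares, which are therefore lower than the shares among promoters with an adjusted p. The median mean log2 ratio was 1.02 over the 8 members, compared with -0.31 over all promoters. Ly6f, Ly6g and Ly6k were above input also when the experiment number was a block, a fit in which 15.8% of all promoters (4173) were above and 8.30% (2187) below input.

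Ly6f had the highest deposited ratio and mean log2 ratio of the 8 members, although Ly6a had the higher log2 ratio in v102. The Ly6f gene occupies chromosome 15, 75268421 to 75272235, plus strand (GRCm38, GENCODE). The Ly6f window held 16 ChIP reads and 19 input reads in v102, and 23 ChIP reads and 27 input reads in v134. Both experiments thus placed it high, at percentile 90.4 and 96.1 of all promoters, with log2 ratios of 1.70 and 2.02. The deposited ratio, the ChIP reads of both experiments over their input reads, was 0.848 (interval 0.555 to 1.29), compared with a median of 0.162 and a 75th percentile of 0.343 over the table. Its log2 fold change over input was 2.00 (standard error 0.41, edgeR adjusted p = 1.46e-05).

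Ly6k, a gene best known from the testis, came next. Its position is chromosome 15, 74796874 to 74799986, minus strand. There were 13 ChIP reads against 16 input reads in v102 and 20 against 35 in v134. The log2 ratios of 1.65 and 1.46 differed little, at percentile 89.8 and 89.2. The deposited ratio was 0.647 (interval 0.419 to 0.999) and the log2 fold change 1.64 (standard error 0.42, edgeR adjusted p = 7.33e-04). The lower limits of the Ly6f and Ly6k intervals were both above the 75th percentile of the table, which held for no other member.

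Ly6g was the remaining promoter above input. Its position is chromosome 15, 75155240 to 75159126, plus strand. Its ChIP reads were 9 in v102 and 20 in v134, with 22 and 40 input reads. In v102 the log2 ratio was 0.73 (percentile 72.5), just under the 75th percentile of 0.83, and in v134 it was 1.27 (percentile 86.1), above the 75th percentile of 0.65. The deposited ratio was 0.468 (interval 0.302 to 0.724), and the log2 fold change was 1.15 (standard error 0.42, edgeR adjusted p = 0.0218). The Ly6g call was lost when library totals replaced TMM normalization (adjusted p = 0.0520) and by DESeq2 (adjusted p = 0.144), and was kept with the experiment number as a block (adjusted p = 0.0465).

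Ly6a, which encodes Sca1, gave different values in the 2 experiments. Its position is chromosome 15, 74994877 to 74998031, minus strand. In v102 the Ly6a window had 8 ChIP reads and 7 input reads, and in v134 it had 6 ChIP reads and 33 input reads. The log2 ratio was thus 2.10 in v102, the highest of the 8 members, and -0.041 in v134. These values correspond to percentile 94.9 and 58.8 of all promoters, and their mean was 1.03 ± 1.52 (SD, n = 2). Scaled to library totals over the table, Ly6a had 49.3 CPM (ChIP) and 11.3 CPM (input) in v102, and 26.1 CPM (ChIP) and 30.4 CPM (input) in v134. ChIP was thus the lower and input the higher in v134. The 7 input reads in v102 lay at percentile 1.34 of that library's promoters. The ratio scaled by library totals was 4.36 in v102 (interval 1.64 to 11.6) and 0.859 in v134 (interval 0.369 to 2.00), so that the intervals overlap.
For both experiments together the deposited Ly6a ratio was 0.350 (interval 0.192 to 0.637), barely above the 75th percentile of 0.343. The interval lies above the median of 0.162 and includes the 75th percentile, so that the Ly6a promoter could not be placed inside or outside the top quartile at this depth. Its log2 fold change over input was 0.79 (standard error 0.56, edgeR adjusted p = 0.259). Within the Ly6a window, 32.5% of the 75-base words also occur elsewhere on chromosome 15, compared with 2.02% or less at the other 7 members. How reads with several possible places were handled is not given in the sources used here, and the part of shared words and of the low v102 input in the Ly6a values was not tested. The windows of Ly6c1 and Ly6c2 share 34.7% and 32.5% of their words in the same way.

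Ly6i is the nearest member to Ly6a (chromosome 15, 74979534 to 74983430, minus strand). It had 9 ChIP and 11 input reads in v102 and 10 ChIP and 32 input reads in v134. As at Ly6a, the v102 log2 ratio was the higher one (1.67 against 0.65) and input was sparse in v102, at percentile 6.76. The v134 value was at percentile 75.2, on the edge of the top quartile. The deposited ratio was 0.442 (interval 0.259 to 0.753), and the log2 fold change of 1.10 (standard error 0.50) had an edgeR adjusted p of 0.0706.

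Ly6e, a broadly expressed gene induced by interferon (chromosome 15, 74955051 to 74959905, plus strand), had 7 ChIP reads in each experiment, against 20 and 29 input reads. The log2 ratios were 0.54 and 0.33, at percentile 67.9 and 68.0. The log2 fold change was 0.45 (standard error 0.54, edgeR adjusted p = 0.522).
Ly6d, a marker of early B lineage cells and keratinocytes (chromosome 15, 74762056 to 74763620, minus strand), had 5 and 6 ChIP reads with 22 and 40 input reads. Both experiments placed it close to the middle of the table, at percentile 52.7 and 51.8. The deposited ratio was 0.177 (interval 0.0944 to 0.333), whose upper limit was below the 75th percentile, and the log2 fold change was -0.23 (standard error 0.55, edgeR adjusted p = 0.762).

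Ly6h, which is expressed mainly in brain, showed the widest disagreement. Its position is chromosome 15, 75551268 to 75567255, minus strand. There were 8 ChIP reads against 16 input reads in v102 and 0 ChIP reads against 25 input reads in v134. The scaled ratio was 1.91 in v102 (interval 0.836 to 4.35), and in v134 it was 0 (interval up to 0.726). A count of 3 reads, the limit that a count of 0 allows, would be a ratio of 0.567 at the observed input. The 95% intervals of the 2 experiments did not overlap. This was so at 1 of the 8 members and at 1.42% of all promoters. The log2 ratios were 1.01 and -2.46, at percentile 78.7 and 7.23, and the log2 fold change over both was -0.083 (standard error 0.65, edgeR adjusted p = 0.928).

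**Figure D1:**
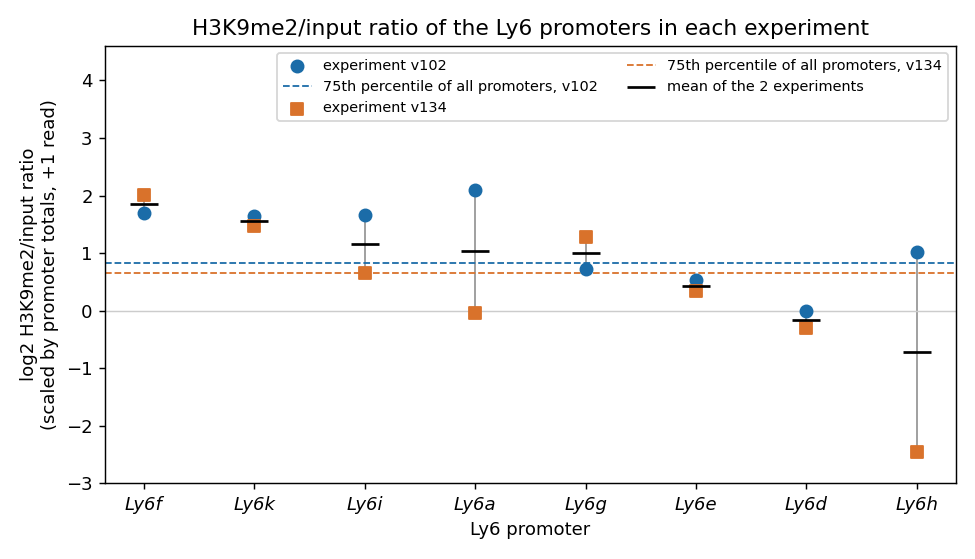
The vertical axis gives the log2 H3K9me2/input ratio scaled by promoter totals with 1 read added, and the horizontal axis the 8 Ly6 promoters. Circles are experiment v102, squares experiment v134, black bars their mean, and dashed lines the 75th percentile of all promoters in each experiment (0.83 and 0.65). Ly6f and Ly6k lie above both lines with closely spaced points, whereas the points of Ly6a and Ly6h lie far apart.

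The agreement between the experiments therefore depended on the member. The SD between the log2 ratios was 0.13 at Ly6k, 0.15 at Ly6e, 0.22 at Ly6d and 0.23 at Ly6f, below the median SD of 0.50 over all promoters. The SD was 0.38 at Ly6g, 0.72 at Ly6i, 1.52 at Ly6a and 2.46 at Ly6h. In the plot of both experiments, v102 gave the higher value at 6 of the 8 promoters, as it did at 60.2% of all promoters. Across the 8 promoters Spearman's rho between the experiments was 0.36 and Pearson's r was 0.29, as a description of promoters that share the same libraries. Without Ly6a and Ly6h, a choice made after the values were seen, rho was 0.83 over 6 promoters. Over all promoters of the table rho was 0.69.
In v102, 5 members were in the top quartile (Ly6a, Ly6f, Ly6h, Ly6i and Ly6k), and in v134 there were 4 (Ly6f, Ly6g, Ly6i and Ly6k). Both experiments had Ly6f, Ly6i and Ly6k in their top quartile, 3 of 8 beside 17.8% of all promoters. The Ly6i value in v134 (0.65) equalled the 75th percentile, which was counted as inside, so the count of 3 depends on that rule. Ly6a and Ly6h were in it in v102 only, compared with 7.40% of all promoters. By the deposited ratio, which the study used for ranking, 5 of the 8 were at or above the 75th percentile (Ly6a, Ly6f, Ly6g, Ly6i and Ly6k).

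**Figure D2:**
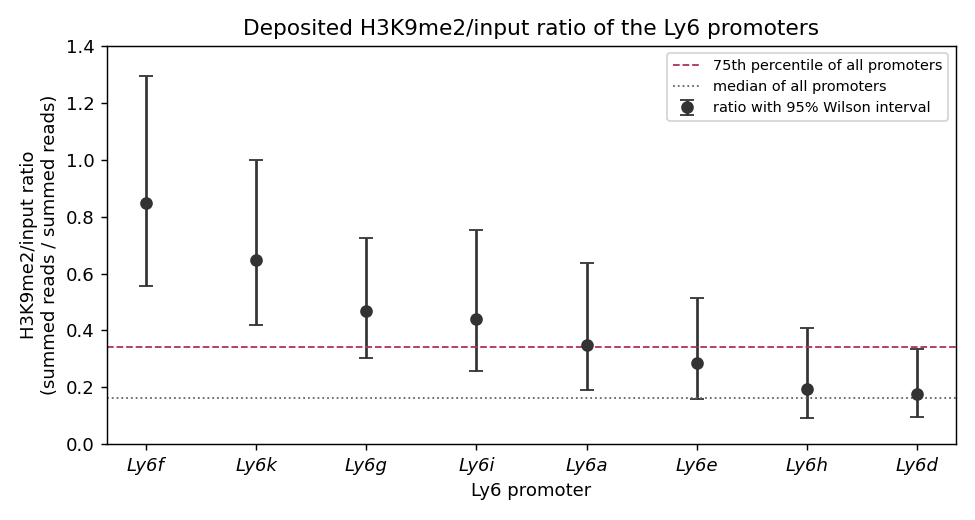
Points are the deposited ratio of H3K9me2 to input reads at each Ly6 promoter, bars are 95% Wilson intervals, and lines give the 75th percentile (dashed, 0.343) and the median (dotted, 0.162) of all 26354 promoters. The intervals of Ly6f and Ly6k lie above the dashed line, that of Ly6d lies below it, and the other 5 cross it.

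In the order of the deposited ratio, Ly6f was followed by Ly6k, Ly6g, Ly6i, Ly6a, Ly6e, Ly6h and Ly6d, and no promoter differed from its neighbour in that order beyond counting error. Of the 28 pairs of members, 5 differed in a two-sided Fisher's exact test on summed reads with adjustment over the 28 pairs. The ratio at Ly6f was 4.78 times that at Ly6d (adjusted p = 9.23e-04), 4.35 times that at Ly6h (adjusted p = 0.00699) and 2.97 times that at Ly6e (adjusted p = 0.0231). The ratio at Ly6k was 3.65 times that at Ly6d (adjusted p = 0.00699) and 3.32 times that at Ly6h (adjusted p = 0.0358). Ly6a was 0.413 times Ly6f (adjusted p = 0.0824). This test treats each read as a separate molecule, and the spread between experiments does not enter it. With the reads of v134 alone 8 pairs differed, these 5 included, and with those of v102 alone 0 did. The v102 library has fewer reads, and its ratios differed in the same direction, by 3.71 times between Ly6f and Ly6d, 3.58 times between Ly6k and Ly6d and 2.41 times between Ly6f and Ly6e. Ly6f was 1.68 times and Ly6k 1.63 times Ly6h in v102. Compared with v134 alone, summing both experiments lowered the adjusted p for Ly6f against Ly6d and Ly6e and for Ly6k against Ly6d. It raised the adjusted p for the pairs with Ly6h, which had 0 ChIP reads in v134.

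The 10 Ly6 genes of the list form a cluster on chromosome 15 whose annotated starts span 804 kb from Ly6d to Ly6h. Between these ends the table holds 15 promoters, the 8 members and 7 others. Of the 7 others, 5 were above input by the same edgeR test, beside 18.6% of all promoters. BC025446 had 20 and 21 ChIP reads, 15 and 27 input reads and a log2 fold change of 2.23 (standard error 0.41, edgeR adjusted p = 1.11e-06). Gm10238, an annotated pseudogene, had 13 and 26 ChIP reads against 14 and 28 input reads. Their starts are 218 kb (BC025446) and 241 kb (Gm10238) from that of Ly6a, next to Ly6f at 270 kb, and their deposited ratios of 0.976 and 0.929 were, like 0.848 at Ly6f, above the 75th percentile of 0.343.
The remaining 3 were 2010109I03Rik, which RefSeq names Ly6m, with 13 and 15 ChIP reads against 13 and 35 input reads, Cyp11b2, the aldosterone synthase gene, with 11 and 12 against 10 and 26, and the transcribed pseudogene 9030619P08Rik with 16 and 23 against 25 and 44. Their deposited ratios were 0.583, 0.639 and 0.565. At Cyp11b2, as at Cyp11b1, 16.9% of the 75-base words of the window occur elsewhere on chromosome 15, and the part of these words in the values was not tested. Cyp11b1 and Gm17189 were not called, at 0.283 and 0.203.
By these start sites, none of the 15 windows overlaps another.

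**Figure D3:**
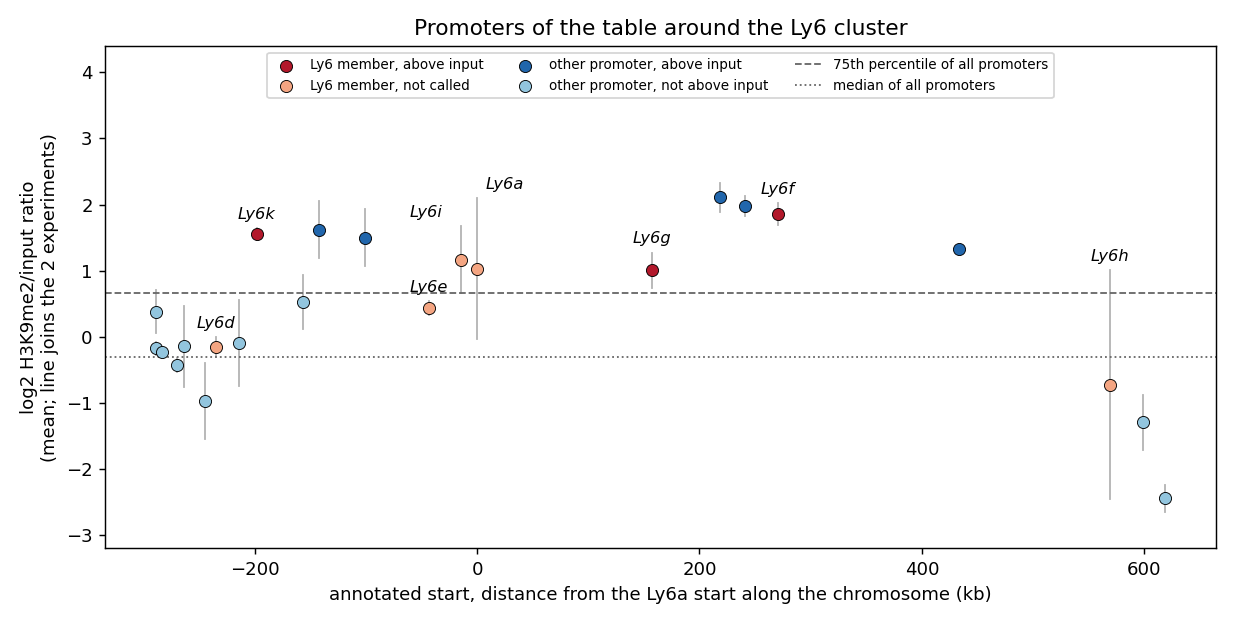
Each point is the mean log2 H3K9me2/input ratio of a table promoter, plotted by the distance of its annotated start from the Ly6a start in kb, and the grey line through it joins the values of both experiments. Dark points were above input by edgeR, and dashed and dotted lines give the 75th percentile and median of all promoters. The 12 promoters from Ly6k to 9030619P08Rik have means of 0.44 or more, and the 11 outside that stretch have means of 0.38 or less.

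Along the chromosome the high values lay in the middle of the cluster. This stretch was chosen after its values had been seen and is given without a test. From Ly6k to 9030619P08Rik, over 632 kb, all 12 table promoters had a mean log2 ratio between 0.44 and 2.11. Of these 12, 8 were above input, where the share over all promoters was 18.6%. Ly6f, Ly6g, Ly6i, Ly6a, Ly6e and Ly6k are the 6 members among the 12. Ly6d and Ly6h at the edges, Gm17189 and the 8 promoters within 60 kb outside the members had means between -2.45 and 0.38, and 0 of these 11 were above input. Pooled over the reads of the inner 12 promoters, the ratio scaled by library totals was 2.90 in v102 and 2.29 in v134, against 0.757 and 0.548 over the outer 11. The stretch was chosen from these values, so the higher pooled ratio of the inner promoters in each experiment is no separate support. Among the outer promoters, the starts of Jrk and 4933427E11Rik lie 0.374 kb apart, so that their windows overlap and can share reads. Reads between promoters were not used here.

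The promoters with the high ratios were also poorer in GC. GC content of the window (GRCm38) was 48.1% at Ly6f, 48.8% at Ly6a, 49.1% at Ly6k, 49.4% at Ly6g and 49.5% at Ly6i, and it was 53.1% at Ly6d, 57.5% at Ly6e and 60.9% at Ly6h. Across the 8 members Spearman's rho between GC content and the mean log2 ratio was -0.86, compared with -0.54 over 22329 promoters with a position, again as a description. The observed over expected CpG number was 0.0607 at Ly6f, 0.101 at Ly6a, 0.106 at Ly6i, 0.115 at Ly6g and 0.192 at Ly6d. It was 0.350 at Ly6e, 0.403 at Ly6k and 0.590 at Ly6h, with a median of 0.441 over the promoters with a position. Spearman's rho between the CpG number and the mean log2 ratio was -0.60 across the 8 members, compared with -0.52 over the promoters with a position.
With the dependence on GC content taken out by a smooth curve, each of the 8 means had a higher percentile, ranked in both cases among the 22329 promoters with a position. The percentile of the mean went from 94.7 to 97.4 at Ly6f, from 90.9 to 96.2 at Ly6k, from 82.7 to 90.1 at Ly6g and from 71.4 to 92.2 at Ly6e. Ly6a moved from 83.1 to 89.1, with percentile 97.6 in v102 and 56.1 in v134. With that correction 5 members (Ly6e, Ly6f, Ly6g, Ly6i and Ly6k) were in the top quartile of both experiments, in place of 3 among the same 22329 promoters without it. The share of all promoters in both top quartiles was not computed for that comparison. The experiments agreed less across the 8 members after the correction, with a Spearman's rho of -0.43 in place of 0.36. Ly6h was then at percentile 96.3 in v102 and 17.1 in v134.

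**Figure D4:**
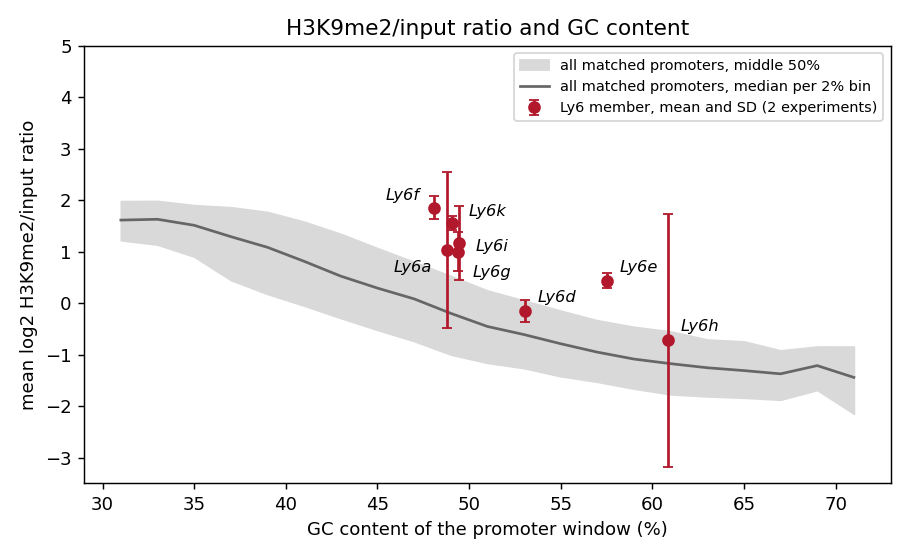
Red points are the 8 Ly6 promoters by GC content of the window and mean log2 H3K9me2/input ratio, with bars of 1 SD (n = 2 experiments). The grey line and band are the median and the middle 50% of all matched promoters in bins of 2% GC. All 8 means lie above the grey line, with long bars at Ly6a and Ly6h.

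Listed relatives from the Ly6/uPAR superfamily, the pseudogene 9030619P08Rik included, were examined in the same way, and most were neither above nor below input. Of 7 other listed superfamily genes on chromosome 15 with a row, 2 were above input (BC025446 and 9030619P08Rik) and 0 below. The shares over all promoters were 18.6% above and 17.0% below. At an unadjusted p under 0.05, 2 of the 7 were below, and by DESeq2 0 were. The list does not hold 2010109I03Rik (Ly6m), which was also above input. Gpihbp1, the anchor of lipoprotein lipase on capillary endothelium, had 1 and 2 ChIP reads against 24 and 25 input reads. Lynx1, a modulator of nicotinic acetylcholine receptors, had 4 and 3 against 24 and 54. The median mean log2 ratio of those 7 was -0.23.
Of the 6 Ly6 genes on chromosome 17, within the major histocompatibility complex, 0 were above input at the adjusted threshold, beside 18.6% of all promoters. Also 0 were above at the unadjusted threshold or by DESeq2, beside 21.4% and 11.6% of all promoters. The median mean log2 ratio of the 6 was -0.64. At an unadjusted p under 0.05, 2 of the 6 were below input, beside 24.8% of all promoters. Ly6g6e was below input with 3 and 1 ChIP reads against 26 and 43 input reads (log2 fold change -1.82, standard error 0.71, edgeR adjusted p = 0.0323), a call that was lost in the blocked fit. Ly6g6d, whose sequence is shown with those of Ly6f and Ly6g, had 4 and 1 ChIP reads against 19 and 41 input reads. Elsewhere in the genome 15 superfamily genes had a row, with a median of -0.25. Of these 15, 1 was above input (Acrv1, which encodes an acrosomal protein of sperm, at 13 and 30 ChIP reads, not called by DESeq2). Another 1 was below (Pate2, at 1 and 4 ChIP reads, lost in the blocked fit). The shares over all promoters were 18.6% above and 17.0% below.

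The study's own control promoters gave the scale of these values. Actb, used as a negative control, had 0 and 1 ChIP reads against 31 and 53 input reads. Magea2, the positive control, had 3 and 7 against 6 and 16, and Mmp3, one of the study's target genes, had 10 and 19 against 15 and 39. The mean log2 ratio was -2.79 at Actb, 1.14 at Magea2 and 1.32 at Mmp3. Ly6f (1.86) and Ly6k (1.56) were higher than Magea2 and Mmp3, and Ly6g (1.00) and Ly6i (1.16) lay near Magea2. The Ly6a mean (1.03) did so too, but it came from 2.10 in v102 and -0.041 in v134, where Magea2 had 1.12 and 1.15. Magea2 itself was not called above input (edgeR adjusted p = 0.170). The differences between these promoters were not tested. The edgeR test called 18.6% of all promoters above and 17.0% below input. Of 10 contractile VSMC promoters 5 were below input (1 in the blocked fit, 0 by DESeq2) and 1 (Smtn) above, with a median of -1.56. Of 5 leukocyte promoters 2 were above and 0 below (2 below at an unadjusted p under 0.05, 0 by DESeq2). Of 6 endothelial promoters 1 (Tie1) was above and 1 (Pecam1) below, and of 6 adventitial fibroblast promoters 0 were above, also unadjusted and by DESeq2, and 2 below. In the blocked fit the Pecam1 call and 1 of those 2 were lost. DESeq2 called 0 of the endothelial and 0 of the adventitial promoters below input, beside 0.102% of all promoters. A histone mark at a promoter does not measure how many cells of a type were present, so that the share of other cells in the dissected media was not tested.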

How the data were processed

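H3K9me2 ChIP and input libraries from 2 experiments (n = 2 per group) were used. The authors trimmed paired-end reads (Trim Galore 0.4.2, Cutadapt 1.9.1 per the labels), aligned them to GRCm38 with Bowtie2 2.2.7 and counted reads around start sites with SeqMonk. The deposited values are raw counts per library, their sums, and a ratio of ChIP counts to input counts over both experiments, which is not scaled for library size. Promoters with fewer than 20 input reads had been removed by the authors, and the lowest summed input is 21. The annotation release and the treatment of duplicates are not given in the sources used here.

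Counts were tested with edgeR 4.0.16 (R 4.3.3, quasi-likelihood, TMM, Benjamini-Hochberg over 26354 promoters) and, as a second tool, DESeq2 1.42.0. The edgeR standard error is the log2 fold change divided by the square root of F. The fit was tested on simulated data, where it found most of the larger increases but a minority of the smaller changes and of the decreases. Positions, GC content and shared 75-base words come from GENCODE M21 and the GRCm38.p6 genome, where 22329 symbols (84.7%) match 1 gene. A matching symbol does not establish the authors' start site. The GC trend was removed with lowess (fraction 0.3, statsmodels 0.14.6). The promoters named are the 8 members, table promoters between their outermost starts, superfamily relatives and the study's controls. Members and lists were chosen with earlier results of these data known, and some relatives were named as examples after their values were seen. The study pairs each ChIP with its input, so the experiment number was used as a block in an alternative. The correlation of the ChIP and input differences between experiments was 0.10. Neither the 2 ChIP nor the 2 input libraries were copies of each other (chi-square per degree of freedom 1.52 and 1.28).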

Additional observations from a re-analysis of the deposited data

How the results depend on the processing

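Alternatives were library totals, DESeq2, at least 20 reads in each input, the experiment number as a block, removal of mitochondrial promoters, pseudocounts of 0.5 and 5 reads, removal of the GC trend and leaving out each experiment. Ly6f and Ly6k were above input in every edgeR and DESeq2 fit that included them. With at least 20 reads in each input only Ly6d, Ly6e and Ly6g remain, and 1 member (Ly6g) was above input and 1 was in both top quartiles, with fewer promoters tested. The Ly6d log2 fold change was then 0.11 in place of -0.23, both far from the threshold. That minimum left 2446 promoters above and 1678 below input over the table, and DESeq2 gave 3058 and 27 with 17883 adjusted p-values undefined, 5 of them at members (Ly6a, Ly6d, Ly6e, Ly6h and Ly6i). In the blocked fit 2187 were below input, and no call at a member changed. With library totals in place of TMM, 4303 were above and 5677 below, the median over the table moved by -0.14 (log2), and the Ly6g call was lost (edgeR adjusted p = 0.0520), as it was by DESeq2.

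The number of members in the top quartile of both experiments was 5 after removal of the GC trend over the 22329 promoters with a position, and 3 over those promoters without it, an alternative added after the data were seen. The share of all promoters was not computed for these 2 counts. The number of members in both top quartiles and the rho between experiments cannot be given with 1 experiment left out. The number of differing pairs was then 0 to 8, and the Ly6a log2 ratio -0.0405 to 2.10. Spearman's rho between the experiments was 0.32 with a pseudocount of 5 reads, 1 over the 3 members with at least 20 reads in each input, -0.43 after removal of the GC trend and 0.83 without Ly6a and Ly6h, a choice made after the values were seen. The cause was not tested. Leaving out an experiment leaves 1 library in each arm, so edgeR was not run that way. Depth limits the single promoters, since 5 of the 8 members have fewer than 20 input reads in v102.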
